A study of Mus musculus with 2 samples.

Results

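A list of 40 cell-cycle genes was followed in leukocytes from mouse melanomas: 18 genes of DNA replication and 22 genes of mitosis. The members were named by symbol, and all 40 were found among the 32432 genes of the count tables. The replication list held the helicase subunits Mcm2, Mcm3, Mcm4, Mcm5, Mcm6 and Mcm7, the helicase partners Cdc45 and Gins2, the loader Cdc6, the clamp Pcna with its partner Pclaf, the nucleotide enzymes Tyms, Rrm1, Rrm2 and Dut, the repair glycosylase Ung, the methylation cofactor Uhrf1, and the histone mRNA binding protein Slbp. The mitotic list held the kinases and cyclins Cdk1, Ccna2, Ccnb1, Ccnb2, Aurka, Aurkb, Plk1 and Bub1, the spindle and centromere genes Kif11, Tpx2, Nusap1, Cenpe, Cenpf, Hmmr, Tacc3 and Birc5, the anaphase genes Cdc20 and Ube2c, the Cdk subunit Cks2, the chromatin genes Top2a and Hmgb2, and the proliferation marker Mki67.

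The study profiled immune cells from B16-F10 tumours, a transplanted mouse melanoma line, by droplet single-cell RNA sequencing of transcript 3′ ends. Trex1 encodes a DNA exonuclease of the cytosol. Both groups were male mice of 8 to 12 weeks that carried R26CreERT2-ki/wt, a tamoxifen-activated recombinase placed at a broadly expressed locus. Trex1 iKO mice were Trex1 fl/fl, and Trex1 control mice were Trex1 wt/fl, so the controls also carried the recombinase, received the drug and had 1 allele open to deletion. All received 1000 tumour cells in the skin of both legs on day 0 and 1 mg of tamoxifen on each of 3 days that began with day 5. Harvest was on day 14. The tumour cells came from a line and did not carry the floxed alleles of the hosts. Live cells positive for CD45, the shared leukocyte surface protein, were enriched on beads and sorted. Each group was 1 pool of 4 hashtagged samples, 8 samples in all. Genotype and pool were the same split and cannot be told apart. The labels do not say that each hashtagged sample was a separate mouse, so p-values measure the spread between these samples, which may be partly technical.

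As background, cells license replication origins with the Mcm helicase in G1, fire them in S phase with Cdc45 and the Gins proteins, and make nucleotides through Rrm1, Rrm2, Tyms and Dut. Genes of that programme are switched on by E2F factors at the G1 to S transition. Genes of G2 and mitosis are repressed in resting cells by the DREAM complex through CHR elements and are driven by B-Myb and FoxM1 as cells approach division, and activated T cells are among the fastest dividing cells of the adult animal.

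The stretches before the start sites of 6 members are shown as examples, each with an E2F or CHR word and that of Cdk1 with both. They are RefSeq sequences of build GRCm38.p6, bases 160 to 1 before the start, 5′ to 3′ on the gene's strand. Capitals mark an E2F word (TTTCCCGC, TTTCGCGC, TTTGCCGC or TTTGGCGC), a CHR word (TTTGAA) or a CCAAT box, on either strand. Where E2F words overlapped, as in Mcm5 and Mcm6, the capitals run on.
Mcm5: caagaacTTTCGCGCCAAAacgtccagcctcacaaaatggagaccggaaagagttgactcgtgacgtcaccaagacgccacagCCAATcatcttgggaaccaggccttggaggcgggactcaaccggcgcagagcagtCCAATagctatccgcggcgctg
Mcm6: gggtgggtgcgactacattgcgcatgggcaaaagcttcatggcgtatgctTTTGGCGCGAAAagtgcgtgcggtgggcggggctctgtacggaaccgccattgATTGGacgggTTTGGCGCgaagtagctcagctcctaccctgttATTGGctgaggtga
Cdc6: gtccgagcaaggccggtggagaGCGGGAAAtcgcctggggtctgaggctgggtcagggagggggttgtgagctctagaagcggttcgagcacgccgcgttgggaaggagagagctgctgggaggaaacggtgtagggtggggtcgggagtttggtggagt
Cdk1: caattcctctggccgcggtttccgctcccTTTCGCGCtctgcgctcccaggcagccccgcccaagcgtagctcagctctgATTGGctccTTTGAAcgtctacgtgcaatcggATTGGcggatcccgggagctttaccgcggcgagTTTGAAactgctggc
Ube2c: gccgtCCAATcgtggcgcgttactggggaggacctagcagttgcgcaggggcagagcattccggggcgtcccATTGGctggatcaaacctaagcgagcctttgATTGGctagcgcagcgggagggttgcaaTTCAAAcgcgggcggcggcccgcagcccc
Cdc20: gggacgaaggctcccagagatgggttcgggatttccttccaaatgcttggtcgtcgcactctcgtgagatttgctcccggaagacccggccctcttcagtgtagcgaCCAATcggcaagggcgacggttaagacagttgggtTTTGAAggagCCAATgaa
Mcm5 lies at chr8:75109349-75109508 on the plus strand, Mcm6 at chr1:128359706-128359865 on the minus strand and Cdc6 at chr11:98907991-98908150 on the plus strand. Cdk1 lies at chr10:69352913-69353072 on the minus strand, Ube2c at chr2:164769769-164769928 on the plus strand and Cdc20 at chr4:118437344-118437503 on the minus strand.

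Over windows from 250 bases before to 50 after the start, 35 of the 40 members matched a window. Aurkb, Ccna2, Gins2, Mcm4 and Tpx2 did not match. An E2F word was in 6 of 16 replication windows (Mcm3, Mcm5, Mcm6, Mcm7, Cdc6 and Pclaf), 37.5%, and in 1 of 19 mitotic windows (Cdk1), 5.26%, beside 2.32% of all 27025 windows. The CHR word was in 12 of 19 mitotic windows, 63.2%, and in 2 of 16 replication windows (Mcm2 and Cdc45), 12.5%, beside 18.1% of all windows. At least 1 CCAAT box was in 12 of 16 replication windows and 16 of 19 mitotic windows, beside 37.9% of all. A match describes letters, not a bound site.

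After filters, 22022 of 23731 barcodes were kept, from 1296 to 5719 a sample in Trex1 iKO and from 1694 to 2697 in control. Median UMIs (unique molecule counts) per kept cell were 12994.5 to 14490.0 in the iKO samples and 6354.0 to 11850.0 in the control samples, with no overlap. No barcodes were shared within a pool, and 45 were shared between the pools. Trex1 itself gave 2 UMIs in kept cells, both in control 2, so it checks no label. Of the kept cells, 20792 passed a marker gate for 1 cell type. Summed UMIs of 5 melanoma markers were 10.3 to 23.2 per 1000000 (CPM) in iKO and 5.34 to 9.55 in control samples, and their part in the results was not tested.

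Among the 8 gated types plotted, both lists were highest in CD8 T cells and regulatory T cells. In CD8 T cells the replication list summed to 1840 ± 574 CPM (SD, n = 8) and the mitotic list to 3257 ± 978. In regulatory T cells the sums were 1645 ± 584 and 2844 ± 771. In monocytes and macrophages they were 315 ± 65.3 and 469 ± 113. Neutrophils gave 221 ± 63.8 for replication, and a mitotic sum of 1187 ± 194 beside 1168 ± 292 in conventional CD4 T cells. The plot of summed levels shows the order over these 8 types. It leaves out gates with fewer cells, NK cells and the dendritic cells other than mature ones among them.

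**Figure D1:**
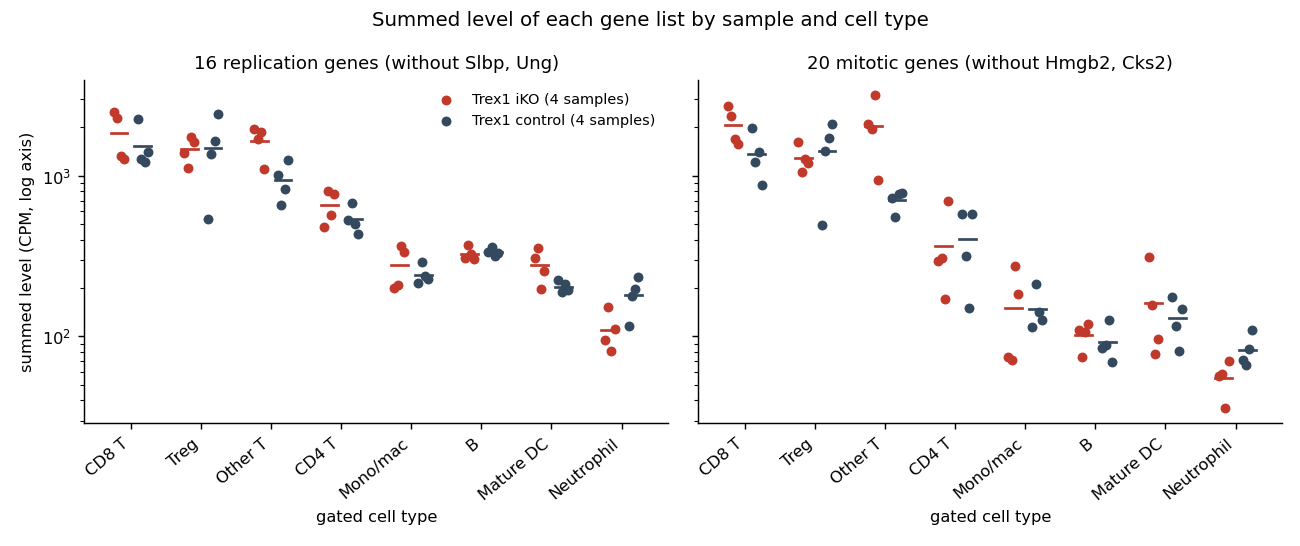
Summed level (CPM, log axis) of 16 replication genes (left, without Slbp and Ung) and 20 mitotic genes (right, without Hmgb2 and Cks2) in 8 of the gated cell types, with 1 point per hashtagged sample, red for Trex1 iKO and dark blue for control, and a short bar at each group mean. CD8 T, regulatory T and other T cells are highest, and neutrophils are lowest; the means over 8 samples in CD8 T cells are 1686 CPM for replication and 1723 CPM for mitotic genes, against 146 and 69.1 CPM in neutrophils.

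Among the 9 types with enough cells, CD8 T cells had the highest mean level of 12 of 18 replication and 19 of 22 mitotic members. Regulatory T cells led for 6 replication members, Mcm5 (75.5 ± 29.5 CPM against 64.4 ± 25.4 in CD8 T cells) among them, and for Mki67 (240 ± 89.3 against 225 ± 64.5). Those differences were smaller than the SDs. Cks2, a Cdk-binding subunit, was highest in neutrophils (162 ± 34.0 CPM), within the SDs of regulatory T cells (148 ± 35.1). Aurka, the centrosome kinase, was highest in type 2 dendritic cells (18.4 ± 8.88 CPM over 6 samples, 2 of them iKO), within the SDs of other T cells (16.2 ± 15.2), which are described below.

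Hmgb2, a chromatin protein that many leukocytes make outside the cycle, was 41.5% of all mitotic-list UMIs in CD8 T cells and 79.3% in neutrophils. With Cks2 it made up 93.3% in neutrophils, which do not divide after leaving the marrow. Pcna and Slbp together were 49.7% of replication-list UMIs in monocytes and macrophages and 16.7% in CD8 T cells. The CD8 T to neutrophil ratio was 0.783 for Cks2, 1.47 for Hmgb2 and 1.91 for Slbp. For the other members it ran from 3.45 for Gins2, 3.85 for Pcna and 5.24 for Cdc45 to 77.3 for Aurkb, the centromere kinase. Sums that leave out Hmgb2, Cks2, Slbp and Ung are called narrow below. Ung was left out although its ratio was 12.1, and Pcna and Gins2 were kept.

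Between types, all 40 members were lower in monocytes and macrophages than in CD8 T cells by edgeR's quasi-likelihood test with Benjamini-Hochberg adjustment and the sample as a block. Over all 12432 genes 38.1% were called lower, beside 40 of 40 members. The fall was 4.39 on the log2 scale for Nusap1, a spindle microtubule protein (SE 0.35, adjusted p 2.4e-07). It was 4.09 for Dut, which clears dUTP (SE 0.28, adjusted p 6.4e-08), and 0.70 for Pcna (SE 0.13, adjusted p 0.00047). The median was -2.38 for replication and -3.17 for mitotic members.

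Regulatory T cells stood above conventional CD4 T cells for 15 of 16 tested replication and 20 of 20 tested mitotic members, against 14.4% of all genes called higher. Aurkb was 2.39 higher on the log2 scale, Ccnb2 (a B-type cyclin) 2.23 and Pclaf 2.20, and the list medians were 1.18 and 1.80. Slbp was not called (0.29, adjusted p 0.066). With every cell thinned to 2000 UMIs, 2544 genes were tested, 8 members among them, and 5 of these 8 were called, where 11.9% of all genes were called higher. Regulatory T cells were lower than CD8 T cells for Dut (-0.87), Ube2c (-0.93), Cdk1 (-0.84), Plk1 (-0.84), Cenpe (-0.77) and Tpx2 (-0.69). These 6 of 40 members were near the share of all genes called lower, 12.8%, so the count does not set the members apart. That comparison was added after the data were seen, and its count ran from 2 to 13 over the settings tried.

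The members were ordered by their level between classes of cells cut by the lists, within CD8 T cells, in which both lists were most abundant. Cells were thinned to 2000 UMIs and a list was called on at 3 or more UMIs, giving cells with replication only, both, mitotic only or neither, each cut made without the gene described. The classes are ranges, not cell types: of 5179 CD8 T cells, 704 had 2 mitotic UMIs, 379 had 3 and 215 had 4. Hmgb2 and Cks2 weighed on the mitotic-only class, which held 15.4% ± 4.19 of iKO and 11% ± 1.32 of control CD8 T cells, each over 4 samples with the SD, but 3.54% ± 1.76 and 3.06% ± 1.13 without Hmgb2, Cks2, Slbp and Ung. A member's level in a class is the mean over samples with at least 10 cells in it, from all UMIs of the cells.

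Ung, Cdc6 and the Mcm helicase genes Mcm3, Mcm2 and Mcm5 were the 5 members lowest in mitotic-only relative to replication-only cells. Mcm3 was 146 ± 61.4 CPM in replication-only cells and 41.7 ± 20.3 in mitotic-only cells, and Mcm5 was 89.8 ± 31.2 and 30.0 ± 17.7. Mcm5 was lower in mitotic-only cells in each of 7 samples compared, and Mcm3 in 6 of them. The log2 ratio of the class means, mitotic-only over replication-only, was -1.81 for Mcm3, -1.58 for Mcm5 and -2.61 for Ung, which rests on 22 UMIs in mitotic-only cells.

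Of 18 replication members, 16 were below 0 in this ratio. Pclaf and Rrm2 were above: Pclaf, the clamp's partner, was 66.1 ± 47.1 CPM in replication-only, 200 ± 106 in mitotic-only and 801 ± 101 in cells with both lists, a ratio of 1.60, and Rrm2, the inducible subunit of ribonucleotide reductase, had a ratio of 0.47. Rrm1, its constant partner, had -0.06. All 22 mitotic members were above 0, from Aurkb at 1.18 and Top2a, the DNA decatenating enzyme, at 1.35 to Hmmr, a spindle protein, at 6.98. As each class was cut by the other members of the same lists, the side of 0 was largely fixed in advance. These counts therefore do not test how the members were assigned to the lists.

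Between those ends, Cdk1 stood at 2.15, Mki67 at 2.34, Ccnb2 at 3.60, Ube2c, the anaphase ubiquitin carrier, at 3.76 and Plk1 at 4.19. Hmmr rested on 15 UMIs in replication-only cells and Plk1 on 18. The mitotic-only values varied widely between samples: Ube2c was 300 ± 251 CPM there. These levels replaced first ones from the thinned UMIs, after those had proved to rest on few UMIs. The rank correlation between both versions was 0.943 over the 40 members, with 1 change of sign and a largest shift of 1.91 on the log2 scale. With classes cut by the narrow lists the rank correlation was 0.967. The order is a description, with no test.

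**Figure D2:**
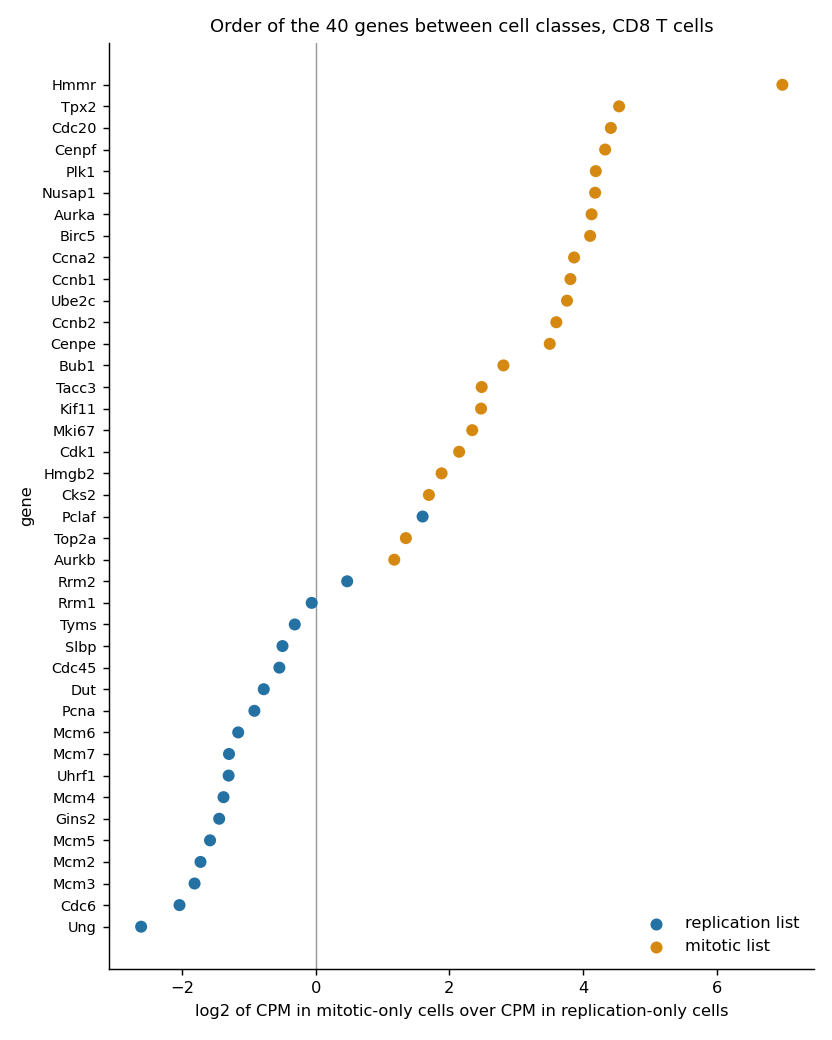
Log2 of each member's mean CPM in mitotic-only over replication-only CD8 T cells, 1 point per gene, blue for the replication list and orange for the mitotic list. The 6 Mcm genes lie between -1.81 and -1.16, Pclaf and Rrm2 are above 0 with the mitotic genes, and Hmmr is highest at 6.98.

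The share of cells with either list on differed by type. With the full lists, thinned to 2000 UMIs, 49.8% ± 13.1 of CD8 T cells (SD, n = 4) were on in iKO and 33.9% ± 8.92 in control. Neutrophils gave 41.2% ± 6.04 and 39.1% ± 8.99, nearly all by Hmgb2 and Cks2, so a full-list share cannot be read as a share of cycling cells.

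With the narrow lists neutrophils fell to 0.223% ± 0.446 and 1.15% ± 0.584. CD8 T cells then gave 55.6%, 44.8%, 23.0% and 17% in iKO 1 to 4 and 38.8%, 22.2%, 14.9% and 15.9% in control 1 to 4, with overlap. The means were 35.1% ± 18.1 and 23.0% ± 11.1. At each of the 4 sample numbers iKO was above control, by 12.2 ± 9.45 points (SD), with no test. The labels state no pairing by number, and control 1 lay above iKO 3 and iKO 4. Other T cells gave 25.8% ± 9.55 and 9.95% ± 2.42, regulatory T cells 18.8% ± 1.84 and 24.8% ± 6.22, and monocytes and macrophages 4.12% ± 2.95 and 3.44% ± 0.843. Without thinning the narrow share of CD8 T cells was 74.1% ± 16.6 and 61.5% ± 10.9, where iKO 1 and iKO 2 had the deepest CD8 T cells.

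CD8 T cells were further split by UMIs of Pdcd1, the gene of the inhibitory receptor PD-1, and Tcf7, a factor of naive and stem-like T cells. Cells with Pdcd1 and without Tcf7 UMIs were narrow-list positive at 42.3% ± 15.3 in iKO and 41.3% ± 9.93 in control. Cells with Tcf7 and without Pdcd1 were at 10.3% ± 3.93 and 5.02% ± 2.21. The first kind was 27.8%, 36.4%, 5.02% and 4.21% of kept cells in iKO 1 to 4 and 13.6%, 6.26%, 2.78% and 1.75% in control 1 to 4.

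**Figure D3:**
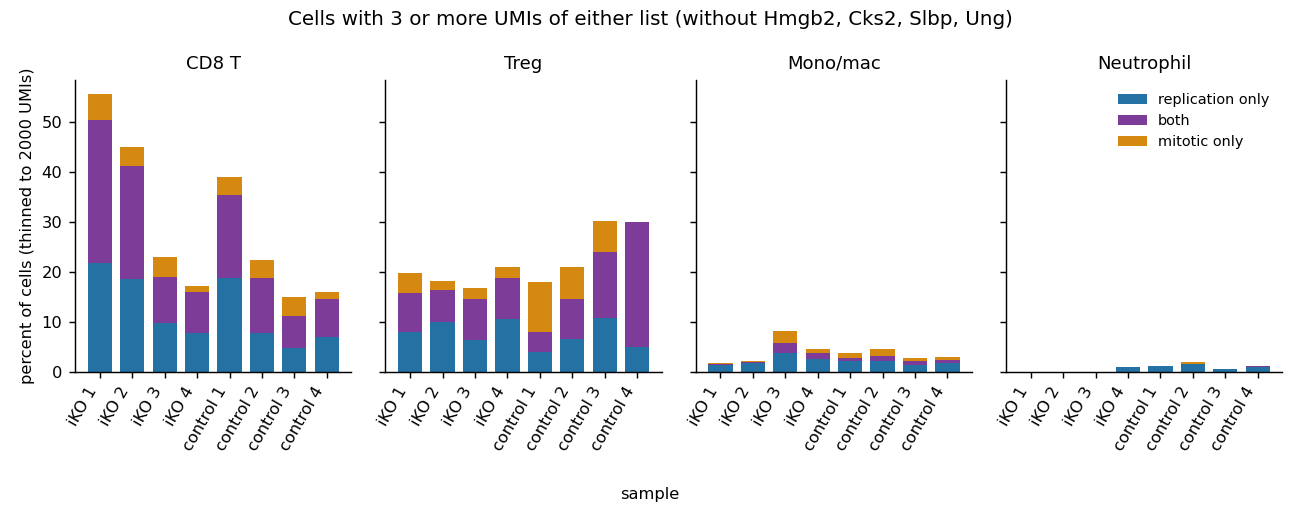
Stacked percent of cells with replication only (blue), both (purple) or mitotic only (orange) lists on, without Hmgb2, Cks2, Slbp and Ung, by sample in 4 gated types, cells thinned to 2000 UMIs. The CD8 T bars reach 55.6% in iKO 1 and 38.8% in control 1 and are 17% in iKO 4, and the neutrophil bars are near 0.

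In CD8 T cells the mitotic genes lay higher in Trex1 iKO samples than in control samples, and no member passed the test. All 22 mitotic members and 17 of 18 replication members had a log2 fold change above 0, with medians of 0.62 and 0.37 beside -0.01 over all 9625 genes. By edgeR's quasi-likelihood test with Benjamini-Hochberg adjustment 0 of 40 were called, where 2.64% of all genes were. At an unadjusted p under 0.05 there were 17 mitotic members and Rrm2, beside 17.5% of all genes, and DESeq2 called 2 members, Cenpe and Hmgb2, with 4.78% of all genes. In summed counts, fewer dividing cells of a type and less RNA per cell cannot be told apart.

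Hmgb2, the most abundant member, was 2010, 1733, 1541 and 1419 CPM in iKO 1 to 4 and 1465, 1040, 1106 and 940 CPM in control 1 to 4. Control 1 exceeded iKO 4, so the groups overlapped narrowly. The difference was 0.58 on the log2 scale (SE 0.15, adjusted p 0.0768 by edgeR).

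Top2a was 508, 467, 284 and 264 CPM in iKO 1 to 4 and 399, 219, 244 and 160 CPM in control 1 to 4. The groups overlapped, with iKO 1, iKO 2 and control 1 high. Its log2 fold change was 0.60 (SE 0.29, adjusted p 0.321).

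Among replication members, Dut was 570, 499, 244 and 267 CPM in iKO 1 to 4 and 584, 280, 310 and 340 CPM in control 1 to 4. The highest sample was control 1 and the lowest iKO 3. The log2 fold change was 0.09 (SE 0.31, adjusted p 0.93). Pclaf was 470, 444, 256 and 211 CPM in iKO and 412, 208, 189 and 215 CPM in control, and control 1 again lay with iKO 1 and iKO 2. Its log2 fold change was 0.46 (SE 0.31, adjusted p 0.485).

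The groups did not overlap for Cenpe, a centromere motor, Aurka, Cdc20, the activator of the anaphase complex, and Cks2, 4 of 22 mitotic and 0 of 18 replication members. Over all genes 5.61% were higher in every iKO sample. Aurka was 25.1, 21.2, 15.7 and 14.3 CPM in iKO 1 to 4 and 14.3, 8.81, 13.4 and 5.16 CPM in control, with iKO 4 just above control 1. The largest log2 fold changes were Ube2c at 0.88 (SE 0.37), Aurka at 0.87 (SE 0.27) and Cdk1 at 0.83 (SE 0.29), with adjusted p of 0.251, 0.132 and 0.176 by edgeR. These members lie outside the rule for named genes and were chosen after their values were seen.

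Cenpe was 105, 83.7, 85.8 and 69.2 CPM in iKO 1 to 4 and 68.9, 46.2, 62.1 and 33.5 CPM in control 1 to 4 (log2 fold change 0.71, SE 0.20, adjusted p 0.106 by edgeR). Cdc20 was 53.7, 41.9, 38.9 and 39.1 CPM in iKO and 35.7, 18.7, 35.3 and 19.4 CPM in control (0.67, SE 0.22, adjusted p 0.156). For both, the highest control lay just under the lowest iKO sample.

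Cdk1 was 128, 111, 82.6 and 73.5 CPM in iKO and 91.7, 48.1, 52.5 and 30.3 CPM in control, and control 1 exceeded iKO 3 and iKO 4. Mki67 was 335, 279, 241 and 194 CPM in iKO and 250, 207, 165 and 134 CPM in control (0.50, SE 0.21, adjusted p 0.25 by edgeR), with overlap. In both genes control 1 was the highest control sample.

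The replication members were closer together. Rrm2, with the largest replication difference, was 139, 131, 71.8 and 75.3 CPM in iKO and 98, 52.1, 50.6 and 50.3 CPM in control (0.75, SE 0.29, adjusted p 0.207 by edgeR). Mcm5 was 106, 92.4, 44.8 and 59.1 CPM in iKO and 81.2, 43.3, 42.6 and 45.8 CPM in control (0.54, SE 0.29, adjusted p 0.376). Each was high in iKO 1, iKO 2 and control 1.

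Slbp was 183, 181, 136 and 118 CPM in iKO and 134, 120, 119 and 132 CPM in control (0.32, SE 0.15, adjusted p 0.311 by edgeR). Ung was the 1 member below 0 (-0.24), at 15.9, 15.2, 7.56 and 10.8 CPM in iKO and 19.7, 13.6, 11.1 and 19.4 CPM in control. Its groups overlapped, with iKO 3 lowest.

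Samples within a group also differed. Samples iKO 1 and iKO 2 gave 1237 and 2467 CD8 T cells and replication sums of 2688 and 2489 CPM, and iKO 3 and iKO 4 gave 177 and 275 cells and 1465 and 1393 CPM. Median UMIs per CD8 T cell were 17992 and 14952 in the first pair and 7670 and 8019 in the second, and 12232, 9324, 7793 and 7504 in controls 1 to 4. That depth difference moved with the list level, and its part in the result was not tested. Melanoma markers summed to 5.47 to 8.96 CPM in iKO and 0.734 to 3.23 CPM in control CD8 T cells, which was not tested either.

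With the sample number as a block, 18 members were called higher: Rrm2 and 17 mitotic members, where 4.47% of all genes were. The number was shared by hashtagged samples of different pools, and in CD8 T cells the samples numbered 2 did not correlate beyond 0.1. Without control 1, 2 members were called, where 291 of all 9767 genes were.

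**Figure D4:**
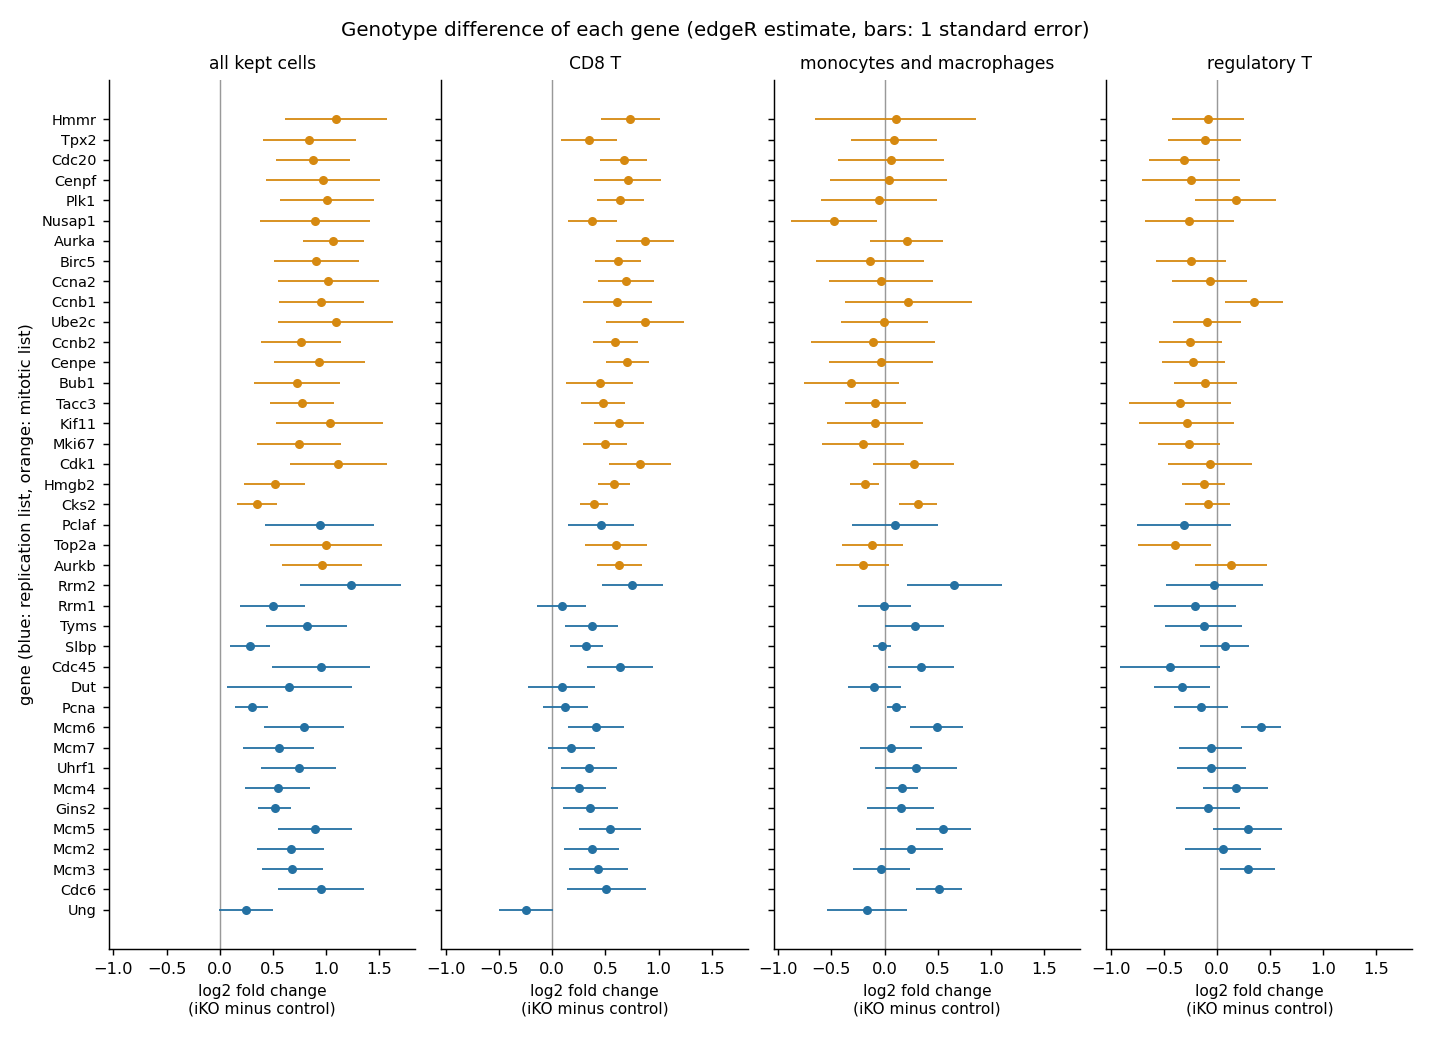
Log2 fold change (Trex1 iKO minus control) of each member with bars of 1 standard error in all kept cells, CD8 T cells, monocytes and macrophages, and regulatory T cells. The mitotic members lie right of 0 in CD8 T cells, with a median of 0.62, and near 0 in monocytes and macrophages.

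The CD8 T cells with Pdcd1 and without Tcf7 UMIs, a subset chosen after the data were seen, had 1055, 2080, 65 and 102 cells in iKO and 265, 106, 75 and 43 in control. In that subset 5 of 40 members passed the test, all higher, against 3.81% of all genes called higher. They were Cdk1 (0.75, SE 0.19, adjusted p 0.034), Rrm2 (0.57, SE 0.15, adjusted p 0.0463), Ccna2 (0.53, SE 0.14, adjusted p 0.0428), Aurkb (0.45, SE 0.11, adjusted p 0.0319) and Hmgb2 (0.41, SE 0.09, adjusted p 0.018).

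Cdk1, the mitotic kinase, was 132, 118, 157 and 112 CPM in iKO and 108, 65.0, 74.3 and 48.6 in control, with every iKO sample above every control sample. Hmgb2 was 2060, 1798, 2148 and 1808 CPM in iKO and 1655, 1278, 1475 and 1583 in control, also without overlap, and 6.37% of all genes were higher in every iKO sample. The medians were 0.28 for replication and 0.45 for mitotic members. The count ran from 0, without control 3, to 8 when 1 sample was left out. Over all genes 254 (without iKO 2) to 577 (without iKO 4) were called in those fits. The member count was 0 in the fit without control 3, where 348 of all 8693 genes were called. The member count was also 0 with cells thinned to 2000 UMIs, where 25 members were tested and the medians were 0.24 and 0.22. In that thinned fit 148 of all 2929 genes were called, 74 of them higher. With the sample number as a block the member count was 12, where 4.16% of all genes were called higher.

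In monocytes and macrophages no member differed between genotypes by the test, 0 of 40 where 11.3% of all 11767 genes were called. At an unadjusted p under 0.05 there was Cdc6 alone, beside 29.8% of all genes, and DESeq2 called 0 members, beside 16.9% of all genes. The medians were 0.16 for replication and -0.04 for mitotic members.

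Pcna, the sliding clamp, was 92.4, 90.9, 120 and 110 CPM in iKO 1 to 4 and 85.2, 93.4, 92.2 and 100 CPM in control. The groups overlapped (log2 fold change 0.11, SE 0.09, adjusted p 0.449). Slbp was 50.6, 51.5, 56.1 and 57.6 CPM in iKO and 47.9, 50, 62.2 and 53.5 CPM in control, and the log2 fold change was -0.02 (SE 0.08, adjusted p 0.894).

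Hmgb2 was 234, 221, 321 and 275 CPM in iKO and 278, 343, 321 and 224 CPM in control, with a log2 fold change of -0.19 (SE 0.13, adjusted p 0.381). Cks2 was 44.9, 51.6, 52.1 and 41.7 CPM in iKO and 28.9, 44.7, 49.2 and 28.3 in control, and the log2 fold change was 0.31 (SE 0.18, adjusted p 0.274). Again the groups overlapped. The mitotic sum was 354, 344, 645 and 499 CPM in iKO 1 to 4, so iKO 3 and iKO 4, the lower iKO samples in CD8 T cells, were the higher ones here. Dissociation genes (Fos, Jun, Hspa1a and Hspa1b) summed to 2463 to 3016 CPM in iKO and 3526 to 4146 CPM in control, and their part was not tested.

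The difference between both types in the genotype effect was tested by an interaction, with 0 of 40 members called and 0.0563% of all 12432 genes called. At an unadjusted p under 0.05 there was Hmgb2 alone, beside 13% of all genes. It fell by 0.76 on the log2 scale (SE 0.22, adjusted p 0.202), monocytes and macrophages minus CD8 T cells. The mitotic median was -0.88 and 0 of 22 members were above 0 (median -0.16 for replication and 0.04 over all genes).

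In regulatory T cells 0 of 37 tested members were called, where 2.7% of all genes were, Mcm6 alone had an unadjusted p under 0.05, beside 15.9% of all genes, and DESeq2 called 0, beside 2.87%. The list medians were -0.06 and -0.13. Log2 fold changes ran from -0.44 for Cdc45 to 0.41 for Mcm6 (SE 0.18, adjusted p 0.29). Mcm6 was 117, 101, 138 and 138 CPM in iKO 1 to 4 and 58.6, 86, 102 and 102 CPM in control, with iKO 2 just under the highest controls. Control 4 had only 20 regulatory T cells, and its replication sum was the highest of the 8 samples at 2673 CPM.

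In whole samples, which mix changes within cells with changes in the share of cell types, all 40 members lay above 0 and 0 were called, where 2.42% of all 13458 genes were. The medians were 0.67 and 0.95. An unadjusted p under 0.05 was reached by 5 replication and 9 mitotic members, beside 21.4% of all genes, and DESeq2 called Aurka and Gins2, with 10% of all genes.

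Top2a was 238, 254, 88.8 and 61.4 CPM in iKO 1 to 4 and 145, 70.4, 72.8 and 37.3 CPM in control (log2 fold change 1.00, SE 0.53, adjusted p 0.304). Hmgb2 was 1048, 1043, 635 and 467 CPM in iKO and 738, 586, 562 and 360 CPM in control (0.52, SE 0.29, adjusted p 0.326). Both were high in iKO 1 and iKO 2, and the groups overlapped.

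Dut was 262, 270, 76.8 and 58.5 CPM in iKO and 204, 93.6, 84.5 and 47.3 CPM in control (0.65, SE 0.59, adjusted p 0.546). Pcna was 164, 163, 121 and 109 CPM in iKO and 135, 105, 107 and 104 CPM in control (0.30, SE 0.16, adjusted p 0.296). Samples iKO 1, iKO 2 and control 1 were the highest for both. CD8 T cells were 32.6%, 43.1%, 13.7% and 11.4% of kept cells in iKO 1 to 4 and 23.0%, 14.0%, 8.86% and 6.07% in control. The share moved with the levels, and its part was not tested. With the sample number as a block, 19 members were called, 3 replication (Mcm2, Mcm5, Uhrf1) and 16 mitotic, where 3.23% of all genes were called higher.

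T cells outside the CD8, CD4 and regulatory gates (called other T cells here) were the 1 gate in which most members passed the test. Of 17 tested replication members 10 were called higher and of 22 mitotic members 21 were, where 9.19% of all 8294 genes were called higher. The exception among mitotic members was Ccnb2 (0.88, adjusted p 0.078), and Cdc6 was not tested. The medians were 0.70 for replication and 1.46 for mitotic members.

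Aurka was 23.3, 22.5, 46.5 and 20.6 CPM in iKO 1 to 4 and 3.68, 0.926, 7.35 and 5.04 CPM in control. No iKO sample overlapped a control (log2 fold change 2.49, SE 0.40, adjusted p 0.00217). Aurkb was 51.6, 39.9, 56.1 and 24.3 CPM in iKO and 11.8, 12, 12.6 and 12.1 CPM in control, also without overlap (1.78, SE 0.25, adjusted p 0.00109).

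Cenpf was 114, 123, 173 and 44.0 CPM in iKO and 26.5, 33.3, 43.6 and 27.2 in control (1.73, SE 0.32, adjusted p 0.00427). Top2a was 394, 365, 524 and 164 CPM in iKO and 150, 95.4, 87.2 and 98.8 in control (1.69, SE 0.29, adjusted p 0.00286). Ube2c was 198, 212, 334 and 74.8 CPM in iKO and 76.6, 50.9, 69.3 and 44.4 in control (1.69, SE 0.34, adjusted p 0.00601). In each the lowest iKO sample was iKO 4, and it overlapped the controls for Ube2c.

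Of the replication members, Rrm2 was 102, 98, 157 and 68.3 CPM in iKO and 36.8, 19.5, 28.4 and 86.7 in control (1.30, SE 0.36, adjusted p 0.0272), with overlap. Tyms, thymidylate synthase, was 93.7, 86.0, 123 and 80.5 in iKO and 49.4, 16.7, 37.3 and 60.5 in control (1.17, SE 0.27, adjusted p 0.0113), without overlap. Uhrf1 was 47.0, 40.5, 46.5 and 31.8 in iKO and 16.2, 9.26, 19.4 and 28.2 in control (1.15, SE 0.24, adjusted p 0.00813), also without overlap.

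Pclaf was 384, 310, 461 and 139 CPM in iKO and 150, 96.3, 112 and 231 in control (1.10, SE 0.33, adjusted p 0.0357), with overlap. Gins2 was 32.9, 27.7, 30.0 and 25.3 in iKO and 8.84, 13.0, 16.8 and 21.2 in control (0.93, SE 0.23, adjusted p 0.016), without overlap. Groups did not overlap for 7 of 17 replication and 14 of 22 mitotic members, where 12.5% of all genes were higher in every iKO sample.

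The make-up of this gate differed between groups. Cells with Cd8a or Cd8b1 together with Cd4 or Foxp3 numbered 118, 161, 56 and 56 in iKO and 50, 31, 68 and 20 in control. Cells with none of these 4 genes were 1.45% to 2.86% of kept cells in iKO and 4.15% to 8.74% in control. Median UMIs per cell in the gate were 6577 to 9855 in iKO and 5062 to 5813.5 in control. Melanoma markers summed to 5.61 to 15.4 CPM in iKO and 1.01 to 3.71 CPM in control. The part of make-up, depth and these markers in the result was not tested.

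Within the first subset, taken after the data were seen, 1 member was called, Aurka (1.95, SE 0.39, adjusted p 0.0252), where 1.53% of all genes were called. The replication median was 0.13 and the mitotic median 0.56. Within the second, 2 of 16 tested members were called, Pclaf (2.03, SE 0.47, adjusted p 0.0324) and Top2a (2.15, SE 0.50, adjusted p 0.0328), where 2.8% of all genes were. Pclaf was 70.3, 73.4, 166 and 13.5 CPM in iKO and 13.4, 10.4, 28.8 and 14.6 in control. Top2a was 60.3, 127, 271 and 24.3 in iKO and 29.5, 20.9, 34.4 and 8.10 in control. In both iKO 4 lay among the controls. With 1 sample left out the counts were 0 to 3 in the first subset and 0 to 5 in the second. Over all genes 57 to 126 and 68 to 334 were called in those fits. With the sample number as a block the second gave 6, where 3.34% of all genes were called higher. Over the whole gate the count was 18 to 38 when 1 sample was left out (18 without iKO 1 and without control 2) and 10 with cells thinned to 2000 UMIs. Without iKO 1, 781 of all 8247 genes were called, and without control 2, 873 of all 8752. Thinning left 18 members tested, and 6.62% of all 4458 genes tested were called higher. The log2 ratio of the list sums, iKO over control, went from 0.77 to 0.87 for replication and from 1.20 to 1.34 for mitotic genes.

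**Figure D5:**
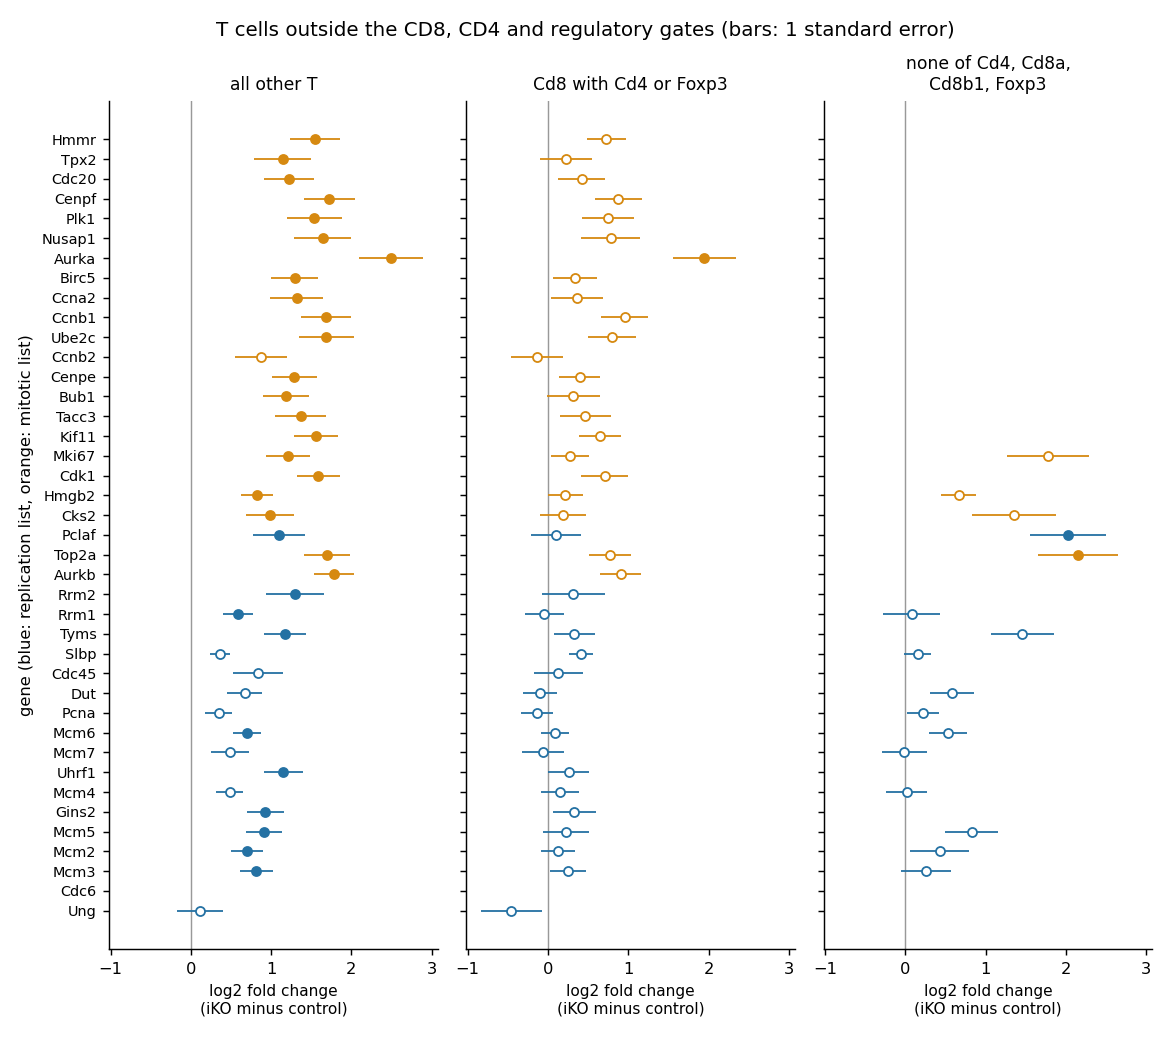
Log2 fold change (Trex1 iKO minus control, bars 1 standard error) of each tested member in other T cells, for the whole gate and 2 subsets, blue for replication and orange for mitotic genes, filled where called. In the whole gate 31 points are filled, with Aurka farthest right at 2.49, and in the subsets 1 and 2 points are filled.

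In the remaining types no member passed edgeR's quasi-likelihood test or DESeq2. These were conventional CD4 T cells (18 tested, 1.56% of all genes called), B cells (4 tested, 2.68%), neutrophils (7 tested, 2.28%) and mature dendritic cells (16 tested, 0.184%). DESeq2 called 2.07%, 2.09%, 3.4% and 1.61% of all genes in these types. An unadjusted p under 0.05 was reached in CD4 T cells by Mcm5 and Pclaf (12.9% of all genes), in mature dendritic cells by Pclaf, Rrm1 and Tyms (13.2%), and in neutrophils by Pcna (13.5%), with lower values in iKO. Pclaf in mature dendritic cells had a log2 fold change of 1.62 (SE 0.52, adjusted p 0.201), and with the sample number as a block it was called (1.42, adjusted p 0.03), as were 1.58% of all genes in the higher direction. Gins2 there was the only member with every iKO sample above every control sample, where 2.46% of all genes were.

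Other cell-cycle regulators, a list of 51, were read beside the members. In CD8 T cells 1 of 49 tested was called higher, Pttg1, the gene of securin (0.44, SE 0.10, adjusted p 0.0461 by edgeR), and 0 lower, where 1.64% of all genes were higher. In monocytes and macrophages 5 of 46 were higher, beside 6.09% of all genes: Ccnd1 (1.56, SE 0.25, adjusted p 0.0094), Pttg1 (1.03, SE 0.17, adjusted p 0.0104), Ccnd2 (1.02, SE 0.21, adjusted p 0.0198), Rbl1 (0.66, SE 0.17, adjusted p 0.0364) and Ccnd3 (0.52, SE 0.14, adjusted p 0.0435). Ccnd1, Ccnd2 and Ccnd3 are the D cyclins of G1.

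In the Pdcd1-positive, Tcf7-negative CD8 T subset 3 of 47 were higher, beside 3.81% of all genes, Ccnd3 (0.56, adjusted p 0.0289), the Cdk inhibitor Cdkn2d (0.90, adjusted p 0.0356) and Pttg1 (0.38, adjusted p 0.0436), and 1 lower, the pocket protein Rbl2 (-0.42, adjusted p 0.0293), beside 2.93%. In other T cells 17 of 39 were higher, beside 9.19% of all genes, among them Ccnd1 (2.49), E2f1, the activator of the G1 to S programme (1.22), Cdk2 (1.15), Mad2l1 (1.11) and Chaf1b (1.04). In whole samples 3 of 50 were higher, beside 1.65% of all genes: Ccnd1 (1.00, adjusted p 0.0019), Pttg1 (0.77, adjusted p 0.0492) and E2f1 (0.69, adjusted p 0.03). In regulatory T cells 0 of 33 were called, beside 2.7% of all genes. In neutrophils 1 of 17 was called, Pttg1 (1.05, SE 0.21, adjusted p 0.0151), beside 2.07% called higher. None of the regulators tested was called lower in whole samples, CD8 T cells, monocytes and macrophages, other T cells, regulatory T cells or neutrophils. Genes called lower in these profiles, in that order, numbered 104 of 13458, 96 of 9625 and 609 of 11767. For the last 3 they numbered 734 of 8294, 101 of 6560 and 13 of 5997.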

How the data were processed

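Cells from 2 pools of 4 hashtagged samples each were sequenced with a droplet 3′ kit, and the authors deposited raw UMI counts per gene and cell for each hashtagged sample. Cell Ranger 7.1.0 and the build GRCm39 are named in the submitters' processing notes. Barcodes with fewer than 300 genes or over 10% mitochondrial UMIs (1241) and Scrublet doublets (468, score over 0.25 at an expected rate of 0.06, 2.081% of those scored) were left out. Hashtags and 92 spike-in features, which held 0 UMIs, stayed out of all totals. Total counts ran from 17111065 to 96457227 UMIs a sample, and with 4 samples a group the spread between samples limits the precision.

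Cells were gated by panels of 5 markers, at least 2 detected and more than in any other panel, not by clustering. No member is in a panel. Counts were summed per sample and type (at least 20 cells, at least 3 samples a group). They were tested with edgeR 4.0.16 in R 4.3.3 (TMM, filterByExpr, quasi-likelihood test, Benjamini-Hochberg adjustment over all genes, threshold 0.05), with genotype as the term. Contrasts between types kept the sample as a block. CPM are UMIs per 1000000 of the profile. SEs were taken as the absolute log2 fold change divided by the root of the F statistic. DESeq2 1.42.0 was an alternative, beside another scaling, no low-count filter, other cell filters and gates, doublets kept, cells thinned to 2000 UMIs, the sample number as a block, and leaving out each sample. Scripts used Python 3.11.15, numpy 2.4.6, scipy 1.17.1 and scanpy 1.11.5. On simulated counts with 200 changed genes, 94% were recovered for CD8 T cells (9337 genes), 97.5% for monocytes and macrophages (11676 genes) and 93.5% for regulatory T cells (6341 genes). The planted changes were much larger on the log2 scale than the list medians in these types, and all genes shared a common dispersion. The recovery therefore does not measure how often differences as small as those of the members would be called.

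Same-numbered samples of the pools deviated together over all genes of whole samples (r of 0.56, 0.27, 0.12 and 0.61 for numbers 1 to 4). The numbers were treated as pairs for that reason, and the blocked count is given where it moved. The pairing was thus chosen from the data that the block then tested. The labels state no shared source. In whole samples iKO 2 correlated best with control 1 (r 0.64) and iKO 3 with control 4 (r 0.44). In CD8 T cells the values for same numbers were 0.59, 0.07, 0.24 and 0.32. In monocytes and macrophages they were 0.27, -0.13, -0.05 and 0.22.

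The members and lists were chosen with earlier results of these data known. Members are named by a rule: called members with the largest change, up to 5 a list, otherwise those of highest mean CPM until 2 a list. The subsets of CD8 T and other T cells, the contrast of regulatory with CD8 T cells, unthinned shares, and levels by class of cells from all UMIs in place of thinned ones were chosen after seeing the data. Of the 51 further regulators, Lin54 was not analysed here.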

Additional observations from a re-analysis of the deposited data

Results flagged for a closer look

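Of 88 groups of 4 samples examined for a sample far from the others, 4 held one, where chance gives about 1 in 20. In B cells the mitotic list summed to 582 CPM in iKO 3, against 429 to 450 CPM in the other iKO samples. In whole control samples Pcna was 135 CPM in control 1, against 104 to 107 CPM in the others. In control CD8 T cells Pclaf was 412 CPM in control 1, against 189 to 215 CPM in the others. In other T cells of the iKO group Aurka was 46.5 CPM in iKO 3, against 20.6 to 23.3 CPM in the others.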

How the results depend on the processing

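Of 363 alternatives over 28 results, 335 were counted as unchanged. A member count was unchanged within 1.5 times of the main count, and a list level or share of cells within the pooled SD. A change of sign within that SD counted as unchanged. The replication list in regulatory T cells, for example, went from -0.016 to 0.31 (log2, iKO over control) with a gate of 3 markers. The member count of 0 in whole samples became 2 with DESeq2, 3 with cells thinned to 2000 UMIs and 19 with the replicate block, and was 0 whichever sample was left out. With thinned cells 756 of all 10882 genes were called in whole samples. In CD8 T cells 0 became 2 with DESeq2, 18 with the block, 5 in the Pdcd1-positive, Tcf7-negative subset, and 0 to 2 with 1 sample left out. The block also gave 1 in mature dendritic cells and moved no other main count of members by over 1.5 times. Between regulatory and CD4 T cells 35 became 5 with thinned cells, with 8 members tested, and 31 to 36 with 1 sample left out. Between regulatory and CD8 T cells 6 became 13 with no low-count filter, 11 with a gate of 3 markers, 10 with thinned cells, and 2 to 11 with 1 sample left out. Called over all genes were 2940 of 19374 with no filter, 2491 of 9539 with that gate and 1169 of 4511 with thinned cells. Thinning left 27 members tested in that contrast. In CD4 T cells 0 became 2 with no filter and 0 to 1 with 1 sample left out, and in mature dendritic cells 1 with no filter. With no filter 320 of 15100 genes were called in CD4 T cells and 344 of 15426 in mature dendritic cells. In other T cells 31 became 10 with thinned cells, with 18 members tested, 18 to 38 with 1 sample left out, and 1 and 2 in its subsets, which hold fewer cells. The causes of these changes were not tested. For the difference in the percent of cells with either list on, regulatory T cells moved from -4.90 to 7.91 points unthinned and neutrophils from 2.04 to 11.5. Monocytes and macrophages moved from 0.361 to 8.35 unthinned with the narrow lists, and other T cells from 19.4 to 12.6 at 5000 UMIs and to 25.8 unthinned with the narrow lists. Dut in CD8 T cells had a log2 fold change of -0.14 to 0.37 with 1 sample left out, -0.14 without iKO 1 and -0.04 without iKO 2 or control 2. Slbp in monocytes and macrophages (-0.02) was 0.017 with no filter, 0.013 with library totals, and -0.067 to 0.050 with 1 sample left out. In other T cells Rrm2 lost its call with DESeq2, Pclaf with DESeq2 and the block, and Gins2 without iKO 1 or control 2. Of the 40 members, 4 were tested in B cells, 7 in neutrophils, 16 in mature dendritic cells and 18 in CD4 T cells.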
